A study of Mus musculus with 12 samples.

Results

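The pre-mRNA splicing factors described here are the mouse genes of the SR, hnRNP, snRNP and SF3 families, measured as bulk liver mRNA. They were chosen by gene name alone: every row present in both deposited count tables whose name starts with Srsf and a digit, Hnrnp, Snrp, Sf3a or Sf3b, with Hnrnpd and pseudogene names left out. This gave 51 genes of the 20093 in both tables, namely 11 SR, 19 hnRNP, 12 snRNP and 9 SF3 genes. Male C57BL/6N mice carrying floxed Elavl1 alleles (HuR flox/flox) were studied in 4 groups with 3 liver libraries each. The livers labelled HuRHep-/- came from mice injected with AAV8-Tbg-Cre, a virus whose hepatocyte promoter drives Cre, and the WT livers from floxed mice that received AAV8-Tbg-null, so both genotypes carried the floxed alleles and a virus. Per the labels the mice were 4 to 6 months old, while the methods of the study describe a cross with albumin-Cre mice of a younger age. The chow groups ate a normal chow diet, and the HFCF groups ate a diet with 40 kcal% fat, 2% cholesterol and 20 kcal% fructose for 16 weeks. The comparisons ask how the mRNA of the splicing apparatus differed between livers labelled as with and without hepatocyte HuR, between diets, and whether the genotype difference depended on diet.

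HuR is an RNA-binding protein that attaches to U-rich stretches, often in 3′ untranslated regions, and it acts on splicing, stability and translation of its targets. Splicing removes introns in the spliceosome, which is built from small nuclear ribonucleoproteins (snRNPs). Each of the U1, U2, U4 and U5 snRNPs carries a ring of Sm proteins (encoded by Snrpb or Snrpn, Snrpd1, Snrpd2, Snrpd3, Snrpe, Snrpf and Snrpg) around its RNA, and particles carry further proteins of their own, such as Snrpa and Snrpc in U1 and Snrpa1 and Snrpb2 in U2. The SF3A and SF3B complexes join the U2 snRNP at the branch point. SR proteins bind exons and generally favour their inclusion, whereas many hnRNP proteins oppose it, and the balance between both groups sets many alternative splicing choices. Many SR genes carry a "poison" exon whose inclusion brings an early stop codon and sends the mRNA to nonsense-mediated decay, a means by which these proteins limit their own amount.

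Elavl1, the gene that encodes HuR, was higher in the livers labelled HuRHep-/-, which goes against the label. Its level, in CPM (read counts scaled to a common library size with trimmed mean of M values, TMM, factors), was 30.9, 29.3 and 30.99 in the chow WT libraries and 42.8, 39.2 and 38.8 in the chow HuRHep-/- libraries. In HFCF livers it was 23.9, 24.2 and 27.0 in WT and 32.4, 32.2 and 34.2 in HuRHep-/-. The groups did not overlap on either diet (log2 fold change 0.41, adjusted p = 0.022 in chow; 0.38, adjusted p = 0.0327 in HFCF; limma with Benjamini-Hochberg adjustment), and without 1 library in turn the call was kept in 2 of 6 fits in chow and 1 of 6 in HFCF livers. Counts over the gene may include reads outside the floxed part, which the tables do not separate. Every genotype direction below is therefore that of the livers labelled HuRHep-/- against those labelled WT, and would turn if the labels were exchanged, which was not tested. Total counts ran from 30071731 to 35949203 per library. Each diet had its own count table, so diet and table cannot be told apart. The labels number the libraries as replicates without tying them to separate mice, so the p-values measure the spread between these libraries.

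U-rich stretches are the kind of sequence HuR is known to bind, so runs of at least 7 T were looked for in the 3′ untranslated regions of the 4 genes called between genotypes, from the annotation GENCODE vM21 on GRCm38. Srsf9, Hnrnph1 and Srsf5 had such runs, which are shown here, and Hnrnph3 had 0 in a region of 974 bases. In the 3′ untranslated region of Srsf9, the SR gene that was lower in livers labelled HuRHep-/- on both diets, there are 2 runs of 8 T, set in capitals here, in a region of 361 bases:
Srsf9 first run, chr5:115332804-115332833, plus strand: gtcttaggacaTTTTTTTTcttttctttcc
Srsf9 second run, chr5:115332844-115332873, plus strand: attttattttaTTTTTTTTattttaaggaa
Hnrnph1, also lower in chow livers labelled HuRHep-/-, has a run of 9 T, and Srsf5, lower in the HFCF livers labelled so, has a run of 7 T:
Hnrnph1, chr11:50386332-50386361, plus strand: tttaaagctcTTTTTTTTTatttttaagtt
Srsf5, chr12:80949994-80950023, plus strand: ccctgggggccTTTTTTTaaaaaacaaaac
Runs of this kind are common, also in genes not called between genotypes. Hnrnpl has runs of 16, 11 and 12 T in a region of 360 bases, and Snrpf runs of 11, 8 and 13 T in 435 bases. A search of the sense strand for TTTTTTT found at least 1 match in the 3′ untranslated region of 28 of the 51 splicing-factor genes (54.9%) and of 5741 of 13347 protein-coding genes tested (43.0%), whose regions had median lengths of 752 and 1112 bases. The share was 81.8% of SR, 73.7% of hnRNP, 25.0% of snRNP and 22.2% of SF3 genes, whose regions had median lengths of 1536, 1082, 398 and 524 bases. The word ATTTA was found in 74.5% of the splicing-factor genes and 68.7% of the protein-coding genes.

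Decay transcripts were annotated for most SR genes. A transcript of the nonsense-mediated decay class was annotated for 9 of 11 SR genes (81.8%), 9 of 19 hnRNP genes, 4 of 12 snRNP genes and 1 of 9 SF3 genes, against 27.9% of the protein-coding genes tested. The stop codons of 4 such transcripts are shown in capitals, because the counts of these genes sum productive and decay transcripts:
Srsf9, chr5:115328412-115328441, plus strand: ttacggattcacagTAGaagtactccggac
Srsf3, chr17:29039471-29039500, plus strand: ttctcaccaccctcTGAatctgcattagcc
Srsf6, chr2:162932950-162932979, plus strand: cagccttttgccatTAGacgcagggtgatg
Srsf7, chr17:80205041-80205070, minus strand: tgagtcagtcgcctTGAttcagaatgtcac
In Srsf9, Srsf3 and Srsf7 the exon with this stop lay wholly outside the coding transcripts. Reads on these exons are not separated in the deposited tables, so exon inclusion was not measured.

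All but 1 of the 51 genes were expressed in every library. Per kilobase of merged exon, the highest level was that of Hnrnpf, an hnRNP that binds G-rich RNA, with a mean of 50.9 CPM per kb over the 12 libraries, followed by Hnrnpab (48.3), Srsf5 (41.9) and Hnrnpa2b1 (38.0). Hnrnpf at 45.0 to 54.3 and Hnrnpab at 46.0 to 53.8 did not separate, and Srsf5 ranged more widely, from 29.5 to 53.2 CPM per kb. Among snRNP genes Snrpb was highest at 26.8 CPM per kb and Snrpc lowest at 3.40. Among SF3 genes Sf3b2 was highest at 12.8 and Sf3b3 lowest at 2.33. Hnrnpr, an RNA-binding relative of Syncrip, was the lowest hnRNP gene at 0.922 CPM per kb, over a merged exon length of 22199 bases. Srsf12 had between 0 and 5 counts per library and was not tested, leaving 50 genes. The counts of some genes could be split with copies elsewhere: the share of 31-base words found in transcripts of other genes was 54.96% for Sf3b4, 50.2% for Hnrnpf, 39.6% for Hnrnpk, 29.5% for Hnrnpa1 and 28.2% for Snrpn, but 0 for Srsf9, 1.48% for Hnrnph1 and 0.5% for Hnrnph3. For 32 genes it was under 10%.

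**Figure D1:**
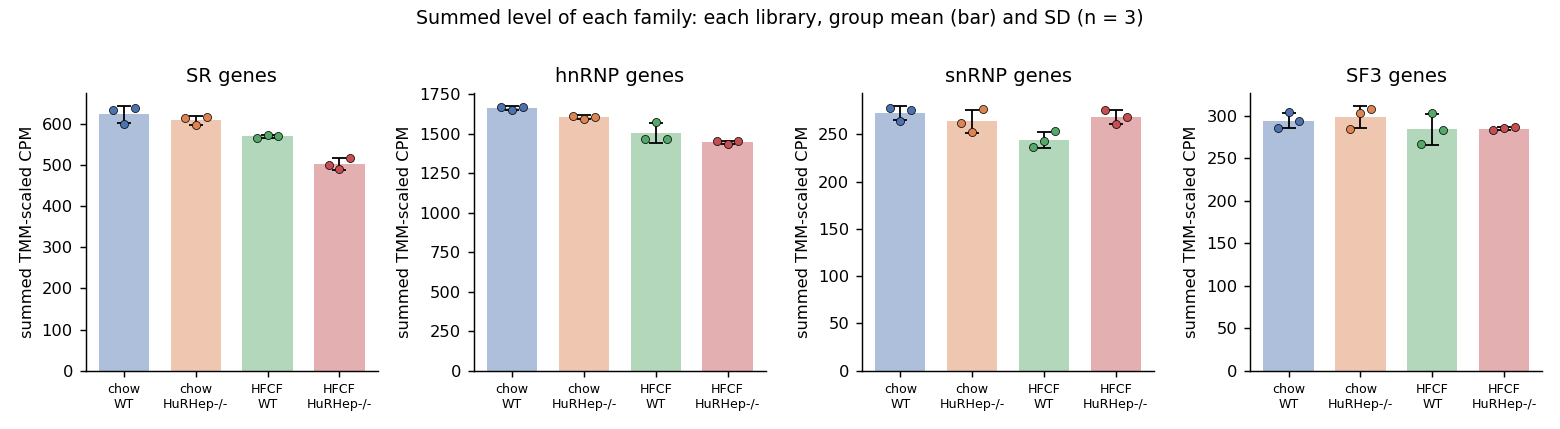
Summed TMM-scaled CPM of the SR, hnRNP, snRNP and SF3 genes (y axis) in the 4 groups (x axis), with each library as a point, the group mean as a bar and the SD as an error bar (n = 3). The SR sum falls from 622.8 in chow WT to 502.0 in HFCF HuRHep-/- livers, while the SF3 sums of the 4 groups lie between 284.2 and 298.8; with library totals in place of TMM the SR sums of these groups were 562.9 and 564.8.

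Summed over all 51 genes, the level was 2854 ± 33.0 CPM (SD, n = 3) in chow WT, 2776 ± 32.7 in chow HuRHep-/-, 2604 ± 82.8 in HFCF WT and 2501 ± 28.9 in HFCF HuRHep-/- livers. The hnRNP genes made up most of it, with group means from 1446 to 1664 CPM. The SR sum was 622.8 ± 20.5, 608.1 ± 10.47, 569.2 ± 3.63 and 502.0 ± 14.1 CPM in the same order, and the snRNP sum was 272.7 ± 7.33, 263.5 ± 12.5, 244.3 ± 8.34 and 268.1 ± 7.30 CPM. The order of these sums depends on the scaling. With library totals in place of TMM factors, a setting added after the data were seen, the sum over all 51 genes was 2581 ± 53.3, 2665 ± 90.2, 2666 ± 35.5 and 2813 ± 72.4 CPM in the same order and no longer fell, and the SR sum was 562.9 ± 6.82, 584.0 ± 22.2, 583.3 ± 22.1 and 564.8 ± 22.9 CPM. The bar chart of family sums shows the TMM-scaled levels per library; no test was made on them.

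In chow livers, 3 of the 50 splicing-factor genes were called between genotypes at an adjusted p of at most 0.05, and all 3 were lower in the livers labelled HuRHep-/-: Srsf9, Hnrnph3 and Hnrnph1. Over all 13526 genes tested 4.18% were called, 2.28% higher and 1.91% lower, and the 3 splicing-factor genes make 6.00%, near that background. Of the 50 estimates 21 were above and 29 below 0, with a median log2 fold change of -0.03, beside 0.00 for all genes. No SR gene other than Srsf9 and no snRNP or SF3 gene was called by limma, and voom weights called the same number; 15 of the 50 genes had an unadjusted p under 0.05, beside 23.5% of all genes. Groups did not overlap for 9 genes upward and 10 downward, beside 15.4% and 14.1% of all genes, and 2 of the 3 called genes (Srsf9 and Hnrnph3) also changed by at least 1.5-fold, as 2.23% of all genes did.

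Srsf9 encodes a short SR protein that takes part in splice site choice. Its level in chow livers was 21.9, 20.3 and 20.9 CPM in WT and 12.9, 14.6 and 13.4 CPM in livers labelled HuRHep-/-. Every library labelled HuRHep-/- lay below every WT library (log2 fold change -0.62, SE 0.08, adjusted p = 0.0118). Hnrnph3 and Hnrnph1 belong to the hnRNP H group, which binds runs of G. Hnrnph3 was 19.0, 21.3 and 19.0 CPM in WT and 12.4, 11.8 and 13.9 CPM in livers labelled HuRHep-/- (log2 fold change -0.63, SE 0.09, adjusted p = 0.0171). Hnrnph1 was 54.5, 56.1 and 55.4 CPM against 40.9, 44.4 and 45.1 CPM (log2 fold change -0.34, SE 0.06, adjusted p = 0.0304). Neither gene overlapped between genotypes, and Hnrnph2, the third of the group that the rule took in, had an overlapping range of 35.9 to 38.1 CPM against 37.1 to 39.7 CPM. Hnrnpu, a nuclear scaffold protein, did not pass the adjusted threshold although its groups did not overlap: 161.4, 162.4 and 154.8 CPM in WT and 141.1, 130.8 and 127.1 CPM in livers labelled HuRHep-/- (log2 fold change -0.26, adjusted p = 0.066).

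**Figure D2:**
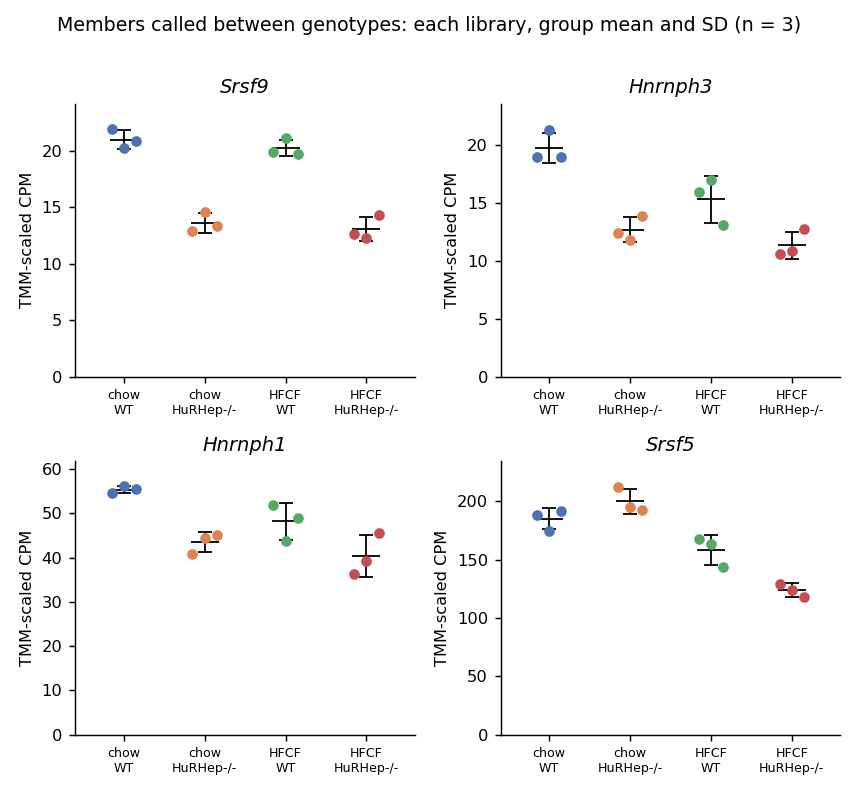
Level (TMM-scaled CPM, y axis) of Srsf9, Hnrnph3, Hnrnph1 and Srsf5 in each library of the 4 groups (x axis), with group means and SD (n = 3). Srsf9 lies at 12.3 to 14.6 CPM in all 6 libraries labelled HuRHep-/- and at 19.8 to 21.9 CPM in all 6 WT libraries.

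The markers of Kupffer cells and macrophages summed to 205.5 to 266.8 CPM in chow WT and 282.6 to 406.7 CPM in chow HuRHep-/- livers, and all 10 estimates were higher, with 0 called and no marker at 0. Proliferation markers summed to 4.98 to 5.96 and 6.37 to 10.6 CPM. Hepatocyte markers summed to 107700 to 130000 CPM in chow WT and 93460 to 103300 CPM in chow HuRHep-/- livers, with 8 of 10 estimates lower. Cold-inducible and heat-shock genes summed to 1334 to 1567 and 1026 to 1233 CPM, with 4 of 7 estimates lower. None of either list was called. In bulk liver, fewer cells of a type and less RNA per cell cannot be told apart, and the part of these cells and genes in the result was not tested. Without chow WT replicate 3 or chow HuRHep-/- replicate 2 no splicing-factor gene was called by limma (8 and 7 had an unadjusted p under 0.05), and without chow WT replicate 1 or chow HuRHep-/- replicate 1 just 1 was, while the calls over all genes fell from 566 to 88, 9, 136 and 114 in those fits. Srsf9 kept its call in 4, Hnrnph3 in 2 and Hnrnph1 in 1 of the 6 fits without 1 library, and with library totals in place of TMM Hnrnph1 lost its call (adjusted p = 0.0567).

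In HFCF livers, 2 of the 50 genes were called between genotypes, Srsf9 and Srsf5, both lower in the livers labelled HuRHep-/-. This is 4.00%, where 6.79% of the 14295 genes tested were called, 2.85% higher and 3.95% lower. Srsf9 also passed a fold change of at least 1.5, as 3.62% of all genes did, and 16 genes had an unadjusted p under 0.05, beside 29.5% of all genes. Groups did not overlap for 13 genes upward and 11 downward, beside 17.6% and 19.2% of all genes. The 50 estimates split evenly, 25 above and 25 below 0, with a median of 0.01 beside 0.00 for all genes. The families differed in their medians: -0.17 for SR and -0.04 for hnRNP genes, 0.15 for snRNP and 0.15 for SF3 genes.

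Srsf9 was 20.0, 21.1 and 19.8 CPM in HFCF WT and 12.7, 12.3 and 14.3 CPM in HFCF HuRHep-/- livers, again without overlap (log2 fold change -0.65, SE 0.09, adjusted p = 0.0171). Srsf5, an SR protein whose mRNA responds quickly to growth signals, was 168, 164 and 144 CPM in HFCF WT and 129.6, 124 and 118 CPM in HFCF HuRHep-/- livers (log2 fold change -0.37, SE 0.08, adjusted p = 0.0427). All libraries labelled HuRHep-/- lay below the WT libraries. The next gene by p was Sf3b3, a large subunit of SF3B, at 22.0, 23.8 and 22.4 CPM in WT and 28.2, 27.2 and 27.4 CPM in livers labelled HuRHep-/- (log2 fold change 0.26, SE 0.06, adjusted p = 0.0542). Its groups did not overlap, and it was called higher under RLE scaling (limma, adjusted p = 0.0494), upper-quartile scaling (0.0364) and voom weights (0.0496). Srsf5, in turn, lost its call under upper-quartile scaling (0.0563) and with library totals (0.102). Hnrnph3 was 15.9, 17.0 and 13.1 CPM against 10.6, 10.8 and 12.7 CPM (log2 fold change -0.44, adjusted p = 0.0776), and Hnrnph1 was 51.8, 43.6 and 49.0 CPM against 36.3, 39.3 and 45.6 CPM with overlap (log2 fold change -0.27, adjusted p = 0.14).

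The limma fits called none of the genes without HFCF WT replicate 1, HFCF HuRHep-/- replicate 1 or HFCF HuRHep-/- replicate 2 (13, 9 and 12 had an unadjusted p under 0.05), and 1 without HFCF WT replicate 2 or HFCF HuRHep-/- replicate 3. The calls over all genes moved from 971 to 45, 28, 33, 708 and 117 in the same fits, and Srsf9 kept its call in 3 and Srsf5 in 1 of the 6 fits without 1 library. In a fit over all 12 libraries 8 genes were called, 3 higher and 5 lower, beside 11.2% of all genes. With library totals alone 8 were called, 7 higher and 1 lower, beside 7.63% and 1.76% of all genes, when the median of all genes moved to 0.15. In HFCF livers macrophage markers summed to 321.5 to 539.3 CPM in WT and 517.2 to 736.7 CPM in HuRHep-/-, and cholangiocyte markers to 38.6 to 87.4 and 132.7 to 241.8 CPM, with 2 of the 5 cholangiocyte markers tested called higher. The macrophage sums overlapped, and the cholangiocyte sums lay apart, as did those for proliferation markers (4.49 to 13.5 CPM in WT and 16.9 to 24.3 CPM in HuRHep-/-), neutrophil markers (2.198 to 3.304 and 4.33 to 5.48 CPM), T, B and NK cell markers (4.61 to 6.62 and 7.03 to 9.18 CPM) and hepatocyte markers (79940 to 86910 and 76660 to 79600 CPM, with 1 of 10 called lower). The part of these cells in the result was not tested.

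The chow and HFCF genotype comparisons share no library. Srsf9 was the 1 splicing-factor gene called in both, and the difference between its fold changes on the 2 diets was -0.01 (95% interval -0.25 to 0.24). Over the 50 genes the 2 log2 fold changes had the same sign in 30 (60.0%), against 64.0% of all genes tested in both, and Pearson's r across these genes, which are not independent replicates, was 0.65, beside 0.39 over all genes. For Hnrnph3 the difference between diets was 0.21 (95% interval -0.14 to 0.56) and for Hnrnph1 0.09 (-0.18 to 0.37), and neither difference passed the test.

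**Figure D3:**
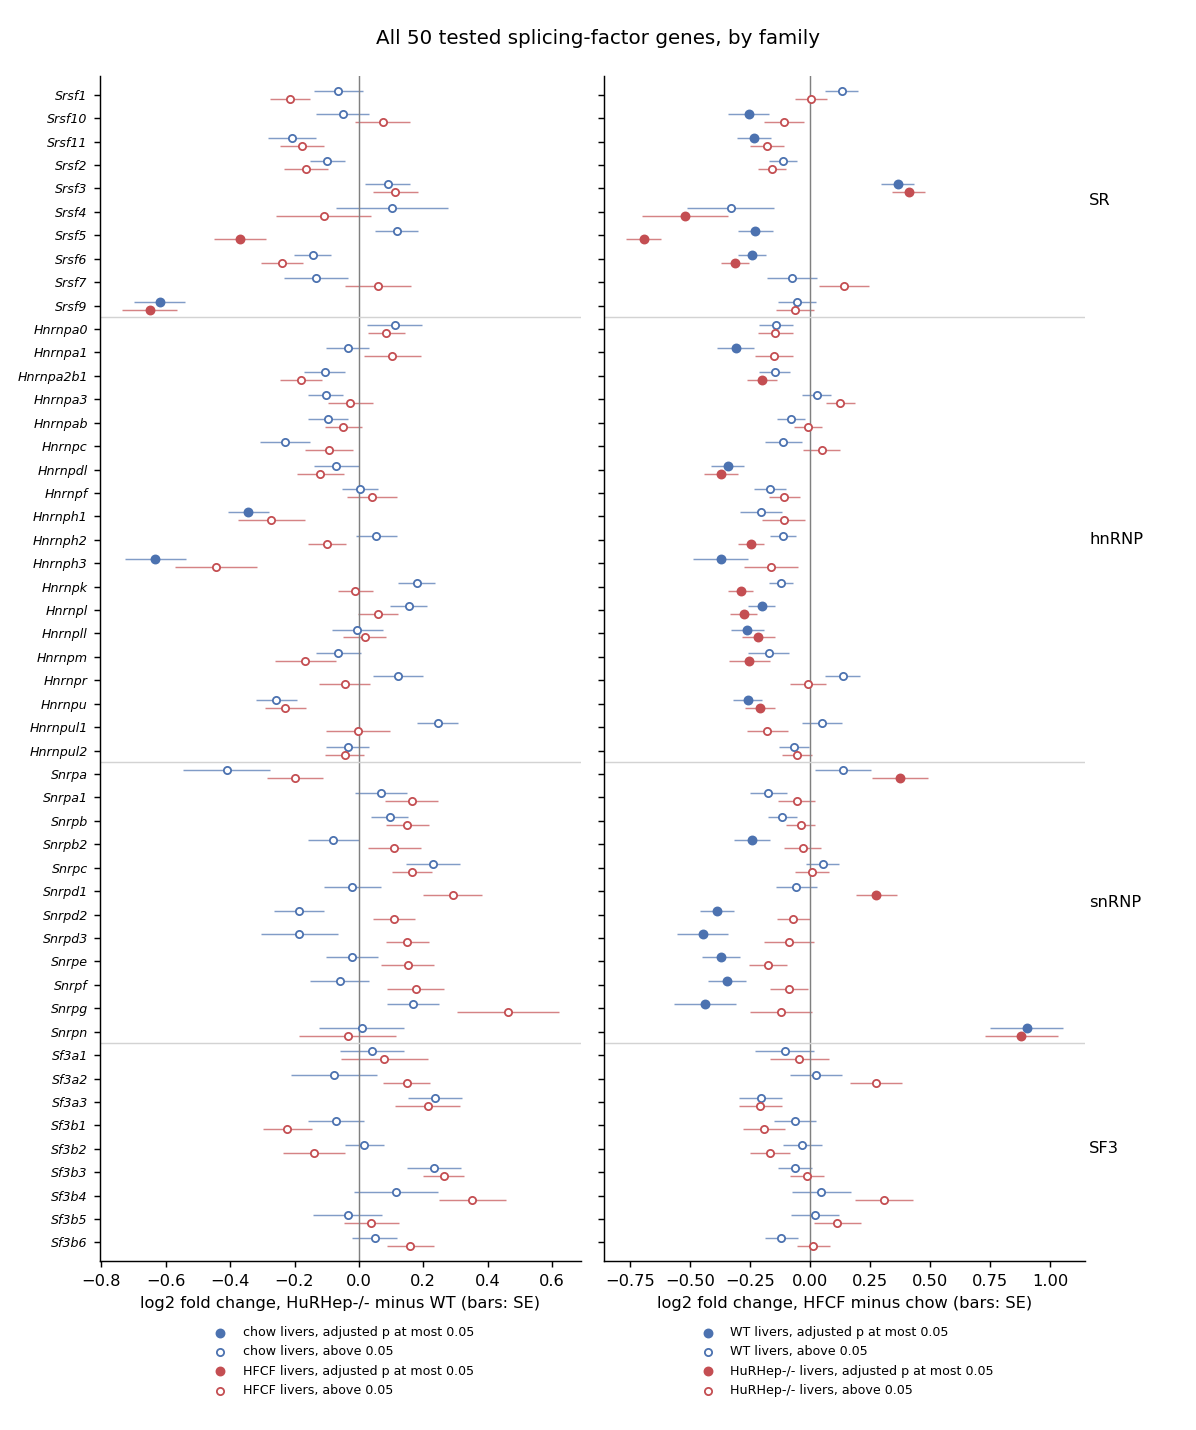
Log2 fold changes (x axes, bars are SE) of the 50 tested genes (y axis, grouped by family) for genotype on each diet (left) and for diet in each genotype (right). Filled points passed an adjusted p of 0.05; Srsf9 lies at -0.62 and -0.65 on the left, and Snrpn at 0.90 and 0.88 on the right.

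The HFCF diet was the larger contrast. In WT livers 18 of the 50 genes were called, 2 higher and 16 lower on HFCF, which is 36.0% beside 24.2% of the 14535 genes tested (11.3% higher and 12.9% lower). At an unadjusted p under 0.05 there were 24, beside 37.8% of all genes, and a fold change of at least 1.5 was passed by Snrpn alone of the 50, beside 9.38% of all genes. The splicing-factor genes are abundant and were measured with a median SE of 0.08, against 0.14 for all genes, so a given change passes the threshold more easily in them. The median log2 fold change of the 50 was -0.12, with 39 estimates below 0, beside 0.01 for all genes. By family, 6 of 12 snRNP genes were called lower and 1 higher, 4 of 10 SR genes lower and 1 higher, 6 of 19 hnRNP genes lower and none higher, and 0 of 9 SF3 genes were called by limma (1 had an unadjusted p under 0.05).

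The genes of the Sm core were the main part of the snRNP calls. Snrpd2 fell from 36.3, 31.8 and 36.8 CPM in chow WT to 25.8, 26.6 and 27.7 CPM in HFCF WT livers, with no overlap (log2 fold change -0.39, SE 0.07, adjusted p = 0.00343). Snrpd3 fell from 49.1, 36.7 and 44.9 CPM to 29.7, 33.1 and 32.5 CPM (log2 fold change -0.45, SE 0.11, adjusted p = 0.0114). Snrpe fell from 23.8, 21.4 and 25.1 CPM to 17.8, 18.3 and 18.1 CPM (log2 fold change -0.37, SE 0.08, adjusted p = 0.00756). Every HFCF WT library was below every chow WT library for each of these 3 genes. Snrpf, the smallest of the set by transcript length, fell from 9.41, 9.06 and 8.50 CPM to 7.28, 7.11 and 6.83 CPM (log2 fold change -0.34, SE 0.08, adjusted p = 0.00957). Snrpg fell from 11.8, 12.8 and 12.1 CPM to 7.21, 9.37 and 10.9 CPM, with the largest SE of the 5 (log2 fold change -0.44, SE 0.13, adjusted p = 0.0309), and kept its call in 2 of 6 fits without 1 library. Snrpd1 was 10.2, 10.8 and 11.4 CPM in chow WT and 10.7, 9.65 and 10.8 CPM in HFCF WT livers, an overlapping range (adjusted p = 0.657), and Snrpb, at 51.5 to 54.1 against 45.6 to 51.9 CPM, was not called. These genes were grouped as the D, E, F and G members of the Sm ring after their values had been seen, so no test was made on the group, whose median was -0.38. Other protein-coding genes with a merged exon length between the extremes of this group, 861 to 3442 bases, had a median of -0.0028 in this comparison. They are a wide set, 4628 genes where 13426 protein-coding genes were tested, and a part of length in the result was not tested. Of the 5 called genes, Snrpe, Snrpf and Snrpg lost their call with library totals alone (limma, adjusted p = 0.0881, 0.163 and 0.17). Snrpf and Snrpg also lost it in a fit on the 6 WT libraries alone (limma, adjusted p = 0.0582 and 0.0932). The share of words found in transcripts of other genes was 26.8% for Snrpe, 23.1% for Snrpf, 19.6% for Snrpg and 17.8% for Snrpd2. For Snrpd3 it was 0.5%.

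**Figure D4:**
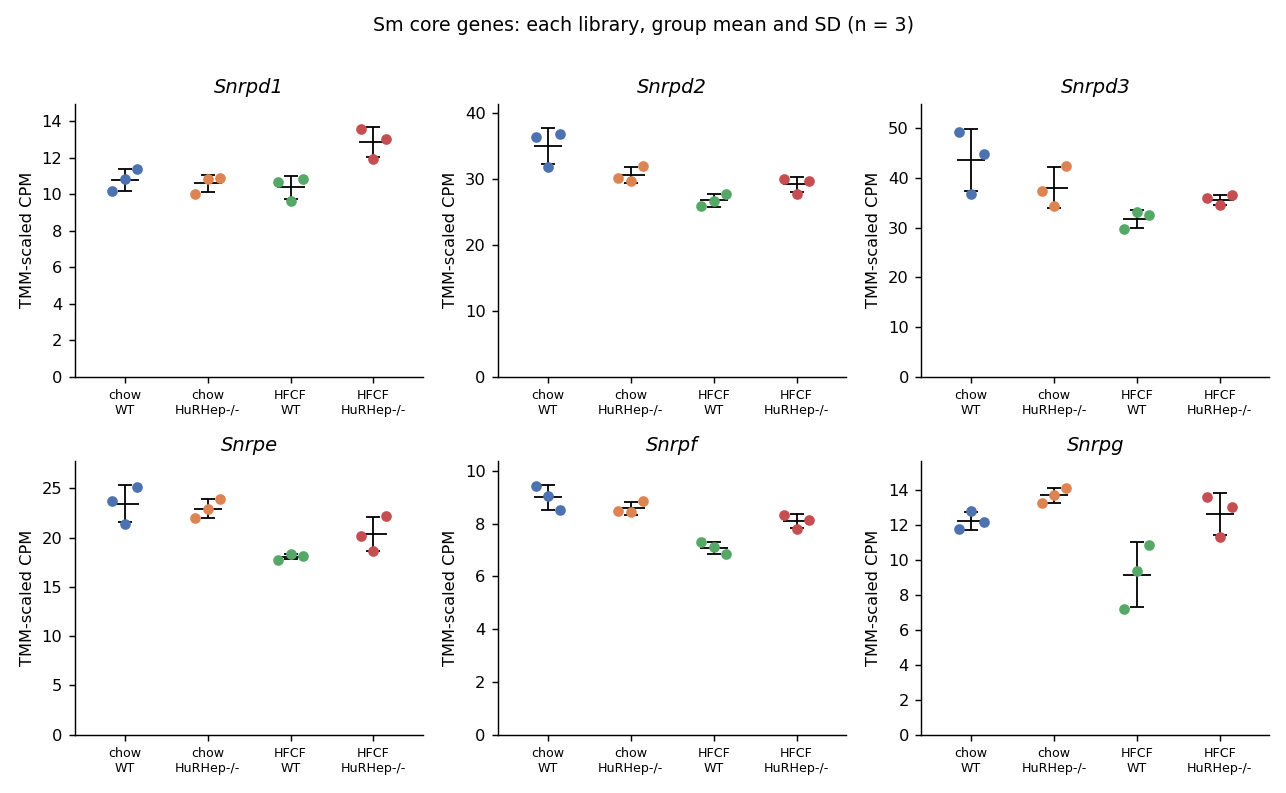
Level (TMM-scaled CPM, y axis) of the Sm core genes Snrpd1, Snrpd2, Snrpd3, Snrpe, Snrpf and Snrpg in each library of the 4 groups (x axis), with group means and SD (n = 3). For all but Snrpd1 the HFCF WT libraries are below the chow WT libraries, and for all 6 genes the mean of the HFCF HuRHep-/- group is above that of the HFCF WT group.

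In the livers labelled HuRHep-/- the diet comparison called 15 of the 50 genes, 4 higher and 11 lower, which is 30% beside a background of 38.9% (19.7% higher and 19.1% lower). The median log2 fold change was -0.10, with 37 estimates below 0, beside 0.00 for all genes. An unadjusted p under 0.05 was found for 21 genes, beside 48.2% of all genes, and Snrpn and Srsf5 also passed a fold change of at least 1.5, beside 19.1% of all genes. None of the 11 lower genes was an snRNP gene, and 8 were hnRNP genes. Of the D, E, F and G genes Snrpd1 was called higher, at 10.03, 10.9 and 10.9 CPM in chow and 13.6, 11.95 and 13.0 CPM in HFCF livers (log2 fold change 0.28, SE 0.08, adjusted p = 0.0229), and the other 5 were not called, with estimates from -0.18 to -0.07. Snrpd2, for example, was 30.03, 29.6 and 31.9 CPM in chow and 29.96, 27.7 and 29.7 CPM in HFCF livers labelled HuRHep-/-.

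Hnrnpa1 and Hnrnpa2b1, abundant hnRNPs that often repress exons, were each called lower in 1 genotype. Hnrnpa1 fell from 48.5, 45.4 and 44.8 CPM to 34.5, 41.4 and 36.1 CPM in WT livers (log2 fold change -0.31, SE 0.08, adjusted p = 0.0156), and Hnrnpa2b1 fell from 261, 247 and 256 CPM to 214, 227 and 225 CPM in livers labelled HuRHep-/- (log2 fold change -0.20, SE 0.06, adjusted p = 0.028). Hnrnph3, described above for genotype, also fell with diet in WT livers, from 19.0, 21.3 and 19.0 CPM to 15.9, 17.0 and 13.1 CPM (log2 fold change -0.37, SE 0.11, adjusted p = 0.0341). None of these groups overlapped. Without 1 library in turn Hnrnpa1 kept its call in 3 of 6 fits, Hnrnpa2b1 in 1 of 6 and Hnrnph3 in 1 of 6, and with library totals alone the estimate of Hnrnpa2b1 turned to 0.030 (limma, adjusted p = 0.681), while Hnrnpa1 (0.224) and Hnrnph3 (0.209) lost their call.

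Srsf5 had the smallest p of any splicing-factor gene in livers labelled HuRHep-/-. It fell from 212, 196 and 193 CPM in chow to 129.6, 124 and 118 CPM in HFCF livers labelled HuRHep-/-, with the groups far apart (log2 fold change -0.69, SE 0.07, adjusted p = 0.000132). In WT livers Srsf5 also fell, from 189, 175 and 192 CPM to 168, 164 and 144 CPM (log2 fold change -0.23, SE 0.07, adjusted p = 0.0412). Srsf4, another SR gene, fell from 42.4, 49.3 and 60.3 CPM to 29.4, 36.2 and 40.1 CPM in the livers labelled HuRHep-/- (log2 fold change -0.52, SE 0.18, adjusted p = 0.0391), with a spread that left its call in 2 of 6 fits without 1 library. Hnrnpk, which binds C-rich RNA and DNA, fell from 201.9, 200.6 and 198.6 CPM to 168.5, 160.4 and 163.0 CPM (log2 fold change -0.29, SE 0.05, adjusted p = 0.00152). Its WT libraries were at 176.9, 170.7 and 185.9 CPM in chow and 163.5, 163.2 and 163.5 CPM in HFCF livers (log2 fold change -0.12, adjusted p = 0.104). Snrpa, which encodes the A protein of the U1 particle, rose from 18.4, 17.2 and 18.1 CPM to 23.1, 23.95 and 22.5 CPM in the livers labelled HuRHep-/- (log2 fold change 0.37, SE 0.12, adjusted p = 0.0259), a call that was lost without any 1 of the 6 libraries. In WT livers Snrpa was 20.8, 29.7 and 22.1 CPM and 27.8, 27.7 and 23.6 CPM, which overlapped.

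The diet call had the same direction in both genotypes for 8 genes: Snrpn and Srsf3 higher, and Srsf5, Srsf6, Hnrnpdl, Hnrnpl, Hnrnpll and Hnrnpu lower. Of all 14535 genes, 7.44% were called higher and 8.94% lower in both. The fold changes in WT and in livers labelled HuRHep-/- share no library. Their SE came from the same fit over 12 libraries, so the calls are not independent. In a fit on the 6 WT libraries alone Srsf5, Srsf6, Hnrnpl and Hnrnpll lost their WT call (limma, adjusted p = 0.104, 0.0528, 0.0723 and 0.087), and the others kept it. Snrpn encodes SmN, a relative of the Snrpb product that is expressed mostly in brain, and lies in an imprinted region of chromosome 7. It rose from 9.32, 8.19 and 8.70 CPM to 14.3, 14.5 and 20.9 CPM in WT livers (log2 fold change 0.90, SE 0.15, adjusted p = 0.00233). In livers labelled HuRHep-/- it rose from 9.07, 7.31 and 10.1 CPM to 17.3, 15.8 and 15.3 CPM (log2 fold change 0.88, SE 0.15, adjusted p = 0.00133). No chow library reached the lowest HFCF library in either genotype, and 27.3% of the exon length of Snrpn is shared with another gene on the same strand. Srsf3, the smallest SR protein, rose from 38.5, 41.3 and 40.0 CPM to 48.1, 53.0 and 53.4 CPM in WT livers (log2 fold change 0.37, SE 0.07, adjusted p = 0.00386). In livers labelled HuRHep-/- Srsf3 rose from 45.3, 40.7 and 40.9 CPM to 55.1, 54.0 and 59.8 CPM (log2 fold change 0.41, SE 0.07, adjusted p = 0.00118). Both genes kept their call in each fit without 1 library.

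Among the genes called lower in both genotypes, Srsf6, an SR protein with a long serine and arginine rich tail, fell from 78.0, 81.6 and 79.6 CPM to 65.2, 66.4 and 70.9 CPM in WT livers (log2 fold change -0.24, SE 0.06, adjusted p = 0.0124). In livers labelled HuRHep-/- it fell from 70.1, 71.4 and 74.2 CPM to 55.9, 56.4 and 61.3 CPM (log2 fold change -0.31, SE 0.06, adjusted p = 0.00193). Hnrnpdl, which is related to AUF1, fell from 52.8, 47.0 and 54.2 CPM to 40.2, 42.3 and 38.7 CPM in WT livers (log2 fold change -0.34, SE 0.07, adjusted p = 0.00581). In livers labelled HuRHep-/- Hnrnpdl fell from 48.0, 48.9 and 48.9 CPM to 39.3, 34.9 and 38.7 CPM (log2 fold change -0.37, SE 0.07, adjusted p = 0.00227). Both genes had separate groups in each genotype. Hnrnpl and Hnrnpu fell by 0.20 and 0.26 on the log2 scale in WT and by 0.28 and 0.21 in livers labelled HuRHep-/-. Without 1 library in turn, Hnrnpll kept its call in 2 of 6 WT fits and 0 of 6 HuRHep-/- fits, Srsf5 and Hnrnpl kept their WT calls in 3 of 6, and Hnrnpu kept its HuRHep-/- call in 3 of 6. Over the 50 genes, 44 (88.0%) had the same sign in both diet comparisons, against 78.1% of all genes, and Pearson's r across genes was 0.75, beside 0.66 over all genes.

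**Figure D5:**
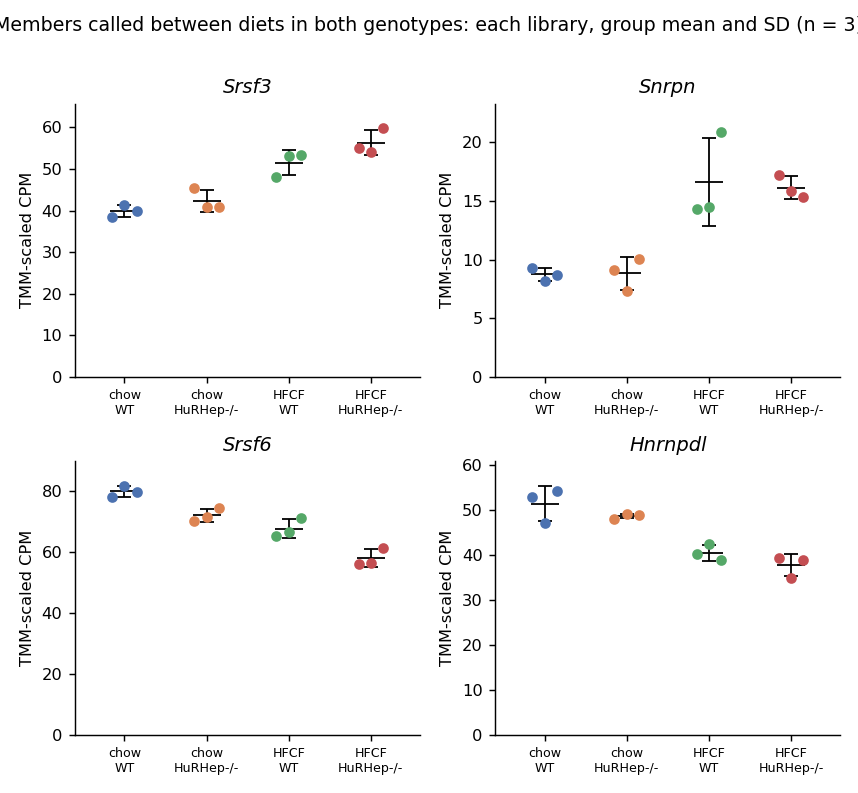
Level (TMM-scaled CPM, y axis) of Srsf3, Snrpn, Srsf6 and Hnrnpdl in each library of the 4 groups (x axis), with group means and SD (n = 3). Srsf3 and Snrpn are higher and Srsf6 and Hnrnpdl lower in every HFCF library than in every chow library of the same genotype.

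The direction of the diet calls is relative to the typical gene. TMM scaling, under which the median of all genes was 0.01 in WT and 0.00 in livers labelled HuRHep-/-, was compared with library totals alone, under which that median rose to 0.19 and 0.23. The median of the splicing-factor genes then became 0.06 and 0.13. A change of scaling moves every gene of a comparison about alike, so the distance between both medians, 0.13 and 0.10, could not change. With library totals 6 genes were called higher and 2 lower in WT livers, and 16 higher and 1 lower in livers labelled HuRHep-/-. Of all genes, 23.3% were then called higher and 4.96% lower in WT, and 35.1% and 6.49% in livers labelled HuRHep-/-. With upper-quartile factors 2 were higher and 10 lower in WT (13.5% and 10.2% of all genes), and 7 and 6 in livers labelled HuRHep-/- (23.4% and 13.5%). Called under all 4 scalings were Snrpn and Srsf3 (higher) and Snrpd2 and Snrpd3 (lower) in WT livers, and Snrpn, Srsf3, Snrpa and Snrpd1 (higher) and Srsf5 (lower) in livers labelled HuRHep-/-. No gene was called in opposite directions by 2 scalings. The WT count fell to 9, 10, 11 and 10 without chow WT replicate 1, chow WT replicate 3, HFCF WT replicate 1 and HFCF WT replicate 3 (13.6%, 15.8%, 16.4% and 14.5% of all genes), and to 7 in a fit on the 6 WT libraries alone (15.02%). In livers labelled HuRHep-/- it was 9 without HFCF HuRHep-/- replicate 1 or 2 (28.1% and 30.1% of all genes).

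Cell type markers moved with diet beside these genes. Of 10 hepatocyte markers, 4 in WT and 5 in livers labelled HuRHep-/- were called lower on HFCF and all 10 estimates were below 0, and their sum was 107700 to 130000 CPM in chow WT and 79940 to 86910 CPM in HFCF WT livers, and 93460 to 103300 and 76660 to 79600 CPM in livers labelled HuRHep-/-. Kupffer cell and macrophage markers were called higher for 4 of 10 genes in WT and 6 of 10 in livers labelled HuRHep-/-, and cholangiocyte markers for 0 and 5 of the 5 tested. Stellate cell and fibroblast markers were called higher for 2 of 9 genes in WT and 9 of 9 in livers labelled HuRHep-/-, and proliferation markers for 1 and 7 of 9. T, B and NK cell markers were called higher for 3 of 9 genes in livers labelled HuRHep-/-, with sums of 4.62 to 6.84 CPM in chow and 7.03 to 9.18 CPM in HFCF livers, and neutrophil markers for 1 of 3 (1.94 to 3.28 and 4.33 to 5.48 CPM); in WT livers neither list had a call. Cold-inducible and heat-shock genes summed to 1334 to 1567 CPM in chow WT and 985.6 to 1055 CPM in HFCF WT livers. Of these genes 1 was called lower, but 4 of 7 estimates were higher (median 0.05). In livers labelled HuRHep-/- their sums overlapped (1026 to 1233 and 937.3 to 1182 CPM), with 2 called higher, 0 lower and 5 of 7 estimates higher. Clock output genes summed to 602.5 to 646.8 CPM in chow WT and 424.5 to 571.6 CPM in HFCF WT livers, with 1 called lower. In livers labelled HuRHep-/- they summed to 444.3 to 668.9 and 493.9 to 528.2 CPM, also with 1 called lower. The part of these cells and genes in the splicing-factor differences was not tested.

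The genotype by diet difference, tested over all 12 libraries, was called for 0 of the 50 genes and 0 of the 14535 genes tested (limma; voom weights also called 0 of the 50). At an unadjusted p under 0.05 there were 6 splicing-factor genes, beside 14.4% of all genes. These were Srsf5, Hnrnpk, Snrpd1, Snrpd2, Snrpd3 and Snrpf. The difference was -0.46 for Srsf5 (95% interval -0.69 to -0.24, adjusted p = 0.128), 0.32 for Snrpd2 (0.10 to 0.54, adjusted p = 0.217) and 0.33 for Snrpd1 (0.07 to 0.59, adjusted p = 0.259). The genes called for diet in 1 genotype alone, 10 in WT and 7 in livers labelled HuRHep-/-, were not shown to differ between genotypes.

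With limma and TMM scaling, 27 of the 50 genes were called in at least 1 of the 5 comparisons and 23 in none, where 50.4% of the 13437 genes tested in all 5 were called at least once. The latter were all 9 SF3 genes, 8 hnRNP genes, 3 SR genes (Srsf1, Srsf2 and Srsf7) and 3 snRNP genes (Snrpa1, Snrpb and Snrpc). Among them, only genes with an unadjusted p under 0.05 in a comparison were followed there under the alternatives. Of those, Sf3b3, Sf3b4, Sf3a2, Snrpc and Srsf2 were called in at least 1 comparison under another scaling or filter. Sf3b1, Sf3b4, Sf3a3 and Hnrnpf were called in a fit without 1 library. The other genes of the 23 were not followed one by one, so these lists may be incomplete. Srsf1, the founding SR protein, ranged from 50.5 to 63.1 CPM over the 12 libraries, Srsf2 from 65.6 to 86.5 and Srsf7 from 18.1 to 24.6. Hnrnpc, which binds U-rich RNA, ranged from 74.3 to 100.2 CPM. Snrpb ranged from 45.6 to 58.0 CPM, Sf3b1, the SF3B subunit at the branch point, from 56.9 to 80.2, Sf3b2 from 77.2 to 101.2 and Sf3a3 from 11.6 to 17.7. A missed threshold does not show that these levels were equal.

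The rest of the splicing machinery was followed in 8 lists of 151 genes that the naming rule leaves out, from snRNP-specific proteins to SR protein kinases and decay factors. In chow livers 1 of 148 tested was called higher and 6 lower between genotypes, and in HFCF livers 1 of 149 higher and 5 lower, where 2.28% of all genes were called higher and 1.91% lower in chow, and 2.85% and 3.95% in HFCF livers. Ddx23, a helicase of the U5 particle, was lower in the livers labelled HuRHep-/- on both diets (log2 fold change -0.73, adjusted p = 0.00722 in chow; -0.98, adjusted p = 0.00321 in HFCF). Clk1, a kinase that phosphorylates SR proteins, was also lower on both (-0.48, adjusted p = 0.025; -0.54, adjusted p = 0.0497). In chow livers Sfpq, a paraspeckle protein, was lower (-0.59, adjusted p = 0.0191) and Snrnp200, the helicase that unwinds U4 from U6, higher (0.45, adjusted p = 0.017). In HFCF livers Esrp1, an epithelial splicing regulator, was higher (2.21, adjusted p = 0.0407).

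Between diets, 39 of the 150 tested were called lower and 3 higher in WT livers (median log2 fold change -0.15), and 48 lower and 10 higher in livers labelled HuRHep-/- (median -0.14). Of all genes 12.9% were called lower and 11.3% higher in WT, and 19.1% lower and 19.7% higher in livers labelled HuRHep-/-. Snrnp48 of the minor U11 snRNP fell by 0.84 on the log2 scale in WT and by 0.61 in livers labelled HuRHep-/- (adjusted p = 0.00195 and 0.00512). The decay factors Upf2 and Upf3b fell by 0.60 and 0.69 in WT livers, while Upf1 rose by 0.44. In livers labelled HuRHep-/- Lsm3, a ring protein of U6, rose by 0.76 (adjusted p = 0.00161). SR protein kinases and import factors had 0 genes called higher and 4 and 5 of 10 lower in the 2 diet comparisons. These values too are relative to TMM scaling.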

How the data were processed

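The 12 liver RNA libraries were made with a NEBNext stranded kit. With CLC Genomics Workbench the authors mapped the reads on GRCm38.p6, and they deposited 2 tables of read counts per gene without normalization, 20775 genes for chow and 22709 for HFCF. These whole numbers are stored as text with commas, so their unit was recorded as other and no count model was used. Commas were removed, and 23 and 27 names turned into dates were restored through Ensembl identifiers. Here log2 CPM (pseudocount 0.5, TMM factors with trims of 0.3 and 0.05) was fitted with limma 3.58.1 (trend) in R 4.3.3. Genes needed, in at least 3 libraries, the CPM that 10 counts give in the median library, and 15 counts in all. P-values were adjusted by Benjamini-Hochberg over all genes tested, and called means at most 0.05. Genotype was tested within each table, diet and the genotype by diet difference over 12 libraries, without a replicate block. Deviations of same-numbered libraries correlated at 0.181, 0.293 and 0.139 between HFCF WT and HFCF HuRHep-/-, all above 0.1, so by this hint from the data, not the labels, the numbers may pair those libraries. Intervals are 95%. The scripts were tested on simulated data.

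The genes, lists and rules were chosen with earlier results of these data known. Named with values are called genes averaging 100 or more normalized counts, up to 6 in each direction per comparison, the 3 smallest p where fewer than 3 were called, a fixed set (Srsf1, Srsf2, Srsf3, Srsf5, Srsf6, Srsf7, Hnrnpa1, Hnrnpa2b1, Hnrnpc, Hnrnpk, Hnrnpl, Hnrnpu, Snrpb, Snrpn, Snrpd1, Snrpa, Sf3a3, Sf3b1, Sf3b2), the highest and lowest gene of each family per length, Elavl1, and up to 3 called genes each way of the machinery lists. Srsf9, Hnrnph1 and Hnrnph3 values in comparisons where they were not called, and the Sm genes as a group, were added after their values were seen. Alternatives were other scalings, filters, a pseudocount of 2, voom weights, robust estimation, a replicate block, other sets of libraries, a fold change of at least 1.5, and genes with under 10% of 31-base words shared. Sequences, lengths and transcript classes came from GENCODE vM21 (GRCm38). Protein sequences were not used here. No columns of fold changes by the authors were in the tables. A named result of the machinery lists is not reported here.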

Additional observations from a re-analysis of the deposited data

Results flagged for a closer look

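Srsf5 was flagged because its groups were apart in opposite directions on the 2 diets. In chow livers all 3 libraries labelled HuRHep-/- (193 to 212 CPM) lay above the 3 WT libraries (175 to 192 CPM), by a gap of under 1 CPM, with a log2 fold change of 0.12 that was not called. In HFCF livers all 3 lay below (118 to 129.6 against 144 to 168 CPM). The difference between the genotype effects, HFCF minus chow, was -0.46 (SE 0.10) and was tested in the fit over 12 libraries, where it did not pass the adjusted threshold (limma, adjusted p = 0.128). Without 1 library in turn it ranged from -0.53 to -0.42, with adjusted p from 0.0557 to 0.288. Of the 31-base words of Srsf5, 15.6% occur in transcripts of other genes.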

How the results depend on the processing

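Single genes were followed only where the unadjusted p in the main fit was under 0.05. With library totals alone, of these the WT diet estimate turned from lower to higher for Hnrnpa2b1 (0.033), Hnrnpf (0.013), Snrpa1 (0.0060) and Hnrnpk (0.059). In livers labelled HuRHep-/- the diet estimate turned so for Sf3b1 (0.037), Hnrnpu (0.020), Srsf11 (0.048), Sf3a3 (0.021), Hnrnpa2b1 (0.030), Srsf2 (0.071) and Hnrnpll (0.013). Many more signs depended on the scaling when all tested splicing-factor genes were counted. Under library totals the estimates above 0 rose from 11 to 31 in the WT diet comparison. In the diet comparison of livers labelled HuRHep-/- they rose from 13 to 42. That setting also moved the HFCF genotype count to 8 with a median of 0.16, the WT diet count to 8 with a median of 0.059, and the HuRHep-/- diet median to 0.13. The HFCF genotype count was 8 with all 12 libraries fitted, and the WT diet count 7 on the 6 WT libraries. Asking also for a fold change of at least 1.5 left 1 gene in HFCF genotype, 1 in WT diet and 2 in HuRHep-/- diet, and keeping genes with under 10% of words shared left 1, 8 and 7.

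Without 1 library in turn the counts ranged from 0 to 3 in both genotype comparisons, from 9 to 19 and from 9 to 12 in the diet comparisons of WT and HuRHep-/- livers, and stayed at 0 for the genotype by diet difference. The medians ranged from -0.06 to -0.0089, 0.0047 to 0.02, -0.14 to -0.12, -0.10 to -0.08 and 0.03 to 0.07 in the same order. Elavl1 ranged from 0.36 to 0.44 in chow and 0.36 to 0.45 in HFCF livers, with adjusted p (limma) up to 0.106 and 0.121. Fold changes of single genes were followed under all alternatives only where the unadjusted p in the main fit was under 0.05. Of these, 1158 kept direction and side of the threshold, 140 no longer passed it, 33 newly passed it and 11 turned. Genes with a larger p in the main fit are not in these counts.

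Over all groups 7 of 18 pairs of libraries with the same replicate number had correlated deviations above 0.1, with a range of -0.12 to 0.29, and outside the HFCF genotype comparison the numbers were not taken as pairing. With the replicate number as a block, 2 genes were called in chow, 2 in HFCF, 18 in the WT diet, 18 in the HuRHep-/- diet and 0 in the genotype by diet comparison, and Hnrnph1 in chow had an adjusted p (limma) of 0.053 and Sf3b1 in the HuRHep-/- diet 0.0232. In the HFCF genotype comparison, where the numbers may pair the libraries, the block changed no call of the genes with an unadjusted p under 0.05 (limma, adjusted p = 0.0253 for Srsf9 and 0.031 for Srsf5). Genes with few counts, such as Srsf12, could not be tested at this depth.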
